A study of Sorghum bicolor with 8 samples.

Results

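Of 34129 sorghum genes in the files, 25 were transcribed in Callus II and Callus III and at most at trace level in Callus I and in Leaf. They were chosen by their own values. Each had at least 5 FPKM (fragment counts corrected for the length of the transcript and the size of the library) in all 4 libraries of Callus II and Callus III and under 1 FPKM in all 4 libraries of Callus I and Leaf. Genes whose lower Callus II value was at least 8 times the highest of the other 6 libraries were left out, as were genes that reached 1000 FPKM in each Callus III library. The contrast of Callus II and III with Callus I and Leaf is therefore the way the genes were picked, and its values are given as a description with no test.

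The series holds 8 RNA-seq libraries, 2 biological replicates in each of 4 groups, all from wild-type sorghum (Sorghum bicolor) of the strain Hiro-1. Callus I, Callus II and Callus III are 3 kinds of callus excised from immature embryos after 3 weeks on induction medium without light and then subcultured apart for 20 days. Leaf is leaf tissue regenerated from Callus II on differentiation medium in a light and dark cycle, so tissue, medium and light cannot be told apart wherever Leaf stands against callus. The labels do not say whether replicates came from separate cultures, so p-values measure the spread between these libraries, which may be technical. In such bulk tissue, fewer cells of a type and less RNA per cell cannot be told apart.

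Callus is a mass of dividing plant cells formed in culture, usually under auxin and cytokinin. A single explant often gives several kinds that differ in texture and in whether they can form shoots or embryos, and in cereals the compact, nodular kinds are the ones usually kept for regeneration. Genes can therefore differ between kinds of callus from the same explant, and the question here is what Callus II and Callus III have in common that Callus I and Leaf lack. The files give no gene names, and the reference gene table used here matched 0 of the identifiers, so no function can be attached to the 25 genes. For the same reason the tissue labels could not be checked against marker genes.

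The choice narrowed quickly. Genes with at least 5 FPKM in all Callus II and III libraries numbered 10399. Of these, 197 were under 1 FPKM in both Callus I libraries, 221 were under 1 FPKM in both Leaf libraries, and 28 met both conditions. The 8-fold exclusion removed 3 of the 28, and the exclusion at 1000 FPKM removed 0. With the same thresholds of 5 and 1 FPKM and no exclusion, the other pairs of groups gave 70 genes for Callus III and Leaf, 36 for Callus I and Leaf, 24 for Callus I and Callus II, 14 for Callus I and Callus III, and 5 for Callus II and Leaf. The count for Callus II and III thus lay between those of the other pairs. The sum of FPKM per library over all genes ran from 595109 to 737291, and read totals are not given, so the depth is unknown.

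The 25 genes together held 1351 and 1313 FPKM in the Callus II libraries and 1052 and 1218 FPKM in the Callus III libraries. In Callus I their sum was 6.6 and 5.1 FPKM, and in Leaf 7.1 and 6.8 FPKM. Their median level was 22.2 and 25.6 FPKM in Callus II and 16.5 and 18.9 FPKM in Callus III. The group mean of a typical member was close to that of all 10399 genes with at least 5 FPKM in these libraries, with medians of 23.3 against 23.4 FPKM in Callus II and 18.1 against 17.3 FPKM in Callus III. Within the set the Callus II means ran from 5.93 to 405 FPKM and the Callus III means from 6.18 to 505 FPKM. The lowest of the 4 values was at least 10 FPKM for 13 members, at least 20 FPKM for 5 and at least 50 FPKM for 1.

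**Figure D1:**
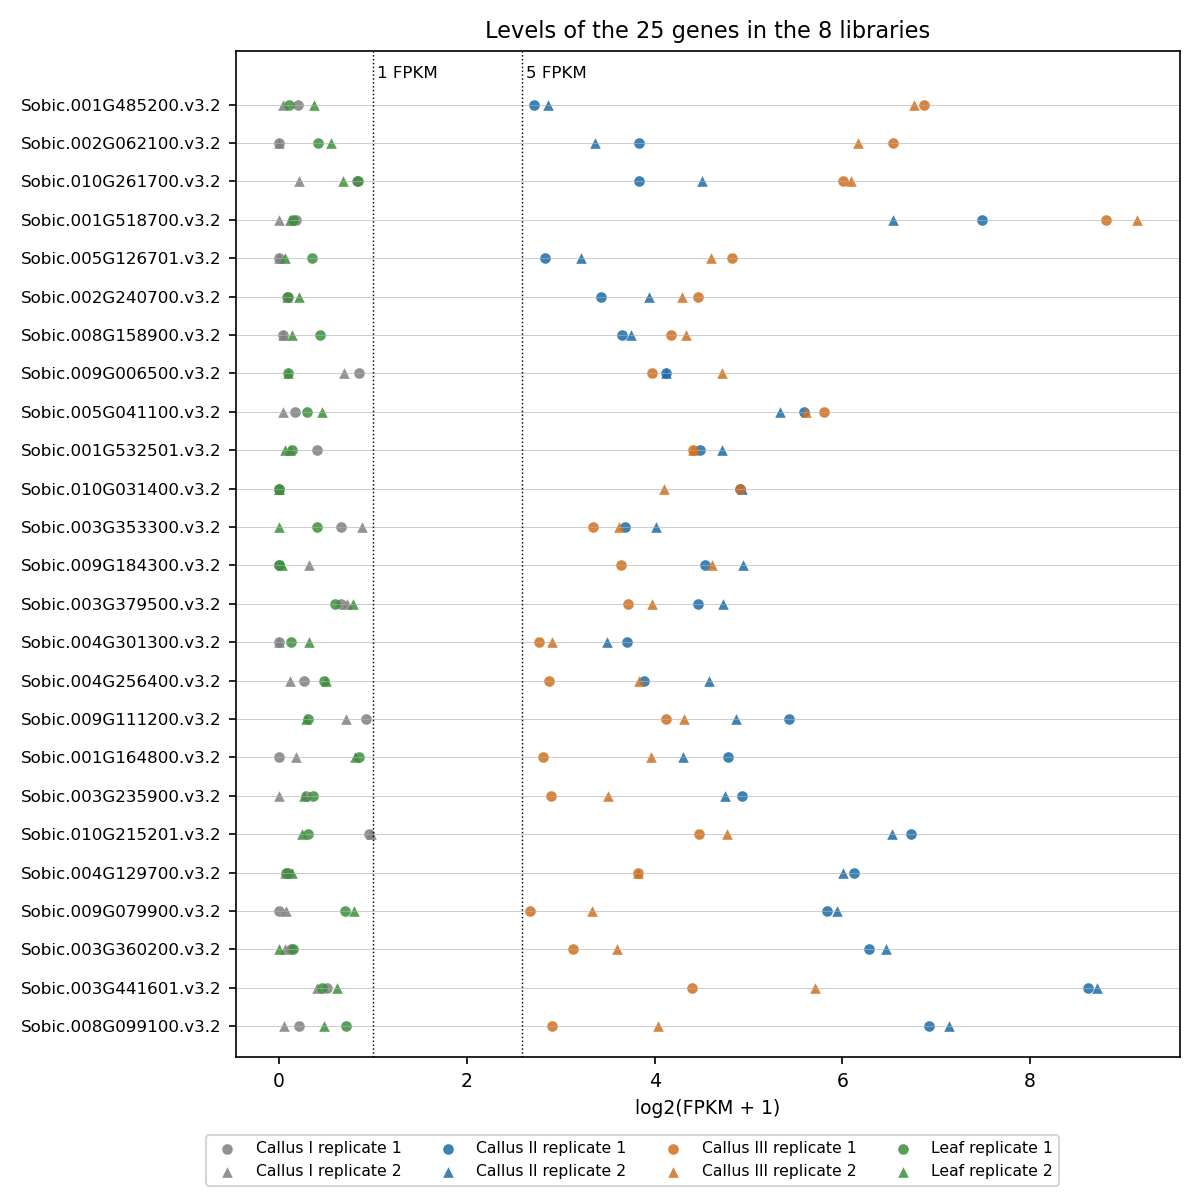
Level of each of the 25 genes in each of the 8 libraries, as log2(FPKM + 1), ordered by the ratio of the Callus III to the Callus II mean. Colours are groups, circles replicate 1 and triangles replicate 2, and the dotted lines mark the thresholds of 1 and 5 FPKM that chose the genes.

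The gene with the highest floor was Sobic.001G518700.v3.2 (chromosome 1, 78485201 to 78486180), at 179 and 91.9 FPKM in Callus II and 448 and 562 FPKM in Callus III. In Callus I it was read at 0.135 and 0 FPKM, in Leaf at 0.108 and 0.0841 FPKM. The lowest Callus II or III library was 683 times the highest Callus I or Leaf library, the widest gap in the set. Over the 24 members for which that ratio could be formed, the median was 21.8 and the lowest was 7.24, for Sobic.009G079900.v3.2.

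Sobic.010G031400.v3.2 (chromosome 10, 2534169 to 2535244) was the 1 member listed at 0 in all 4 libraries of Callus I and Leaf. The Callus II libraries gave 29.2 and 29.6 FPKM, the Callus III libraries 29.0 and 16.2 FPKM. Because a listed 0 may stand for an estimate that failed, no fold is given for it.

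Sobic.005G041100.v3.2 (chromosome 5, 3769817 to 3772340) had a similar level in both callus types in the deposited FPKM. It had 47.2 and 39.5 FPKM in Callus II and 54.8 and 47.8 FPKM in Callus III, both above Callus II. It was at 0.128 and 0.0312 FPKM in Callus I and at 0.229 and 0.376 FPKM in Leaf. Sobic.001G532501.v3.2 (chromosome 1, 79583214 to 79587540) was the steadiest of the 10 with the highest floor, at 21.4 and 25.3 FPKM in Callus II and 20.3 and 20.2 FPKM in Callus III.

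Of the other members among the 10 highest floors, Sobic.009G006500.v3.2 (chromosome 9, 563020 to 565136) had 16.4 FPKM in each Callus II library against 14.7 and 25.3 FPKM in Callus III, whose libraries lay on both sides of Callus II. Its trace was in Callus I, at 0.808 and 0.618 FPKM, more than in Leaf, at 0.0684 and 0.0711 FPKM. Sobic.010G261700.v3.2 (chromosome 10, 59801733 to 59804530) rested on 13.3 and 21.6 FPKM in Callus II and reached 63.5 and 67.1 FPKM in Callus III. Its Callus I libraries differed, at 0.777 and 0.159 FPKM, and both Leaf libraries were at 0.788 and 0.603 FPKM. Sobic.004G129700.v3.2 (chromosome 4, 16515585 to 16518203) leaned the other way, with 68.8 and 63.5 FPKM in Callus II and 13.1 FPKM in each Callus III library. All 4 of its values in Callus I and Leaf were under 0.1 FPKM, the highest being 0.0984 FPKM.

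Being shared did not mean being equal. By the ratio of group means, 13 of the 25 members (52%) lay within 3-fold between the callus types, 7 (28%) were at least 3 times as high in Callus II, and 5 (20%) were at least 3 times as high in Callus III. Among the 10399 genes with at least 5 FPKM in all these libraries, the shares were 92.4%, 5.38% and 2.26%. The class of 3-fold was set after the values were seen, and the 8-fold exclusion limits how far Callus II may exceed Callus III in the set, so these shares are a description. A test of Callus III against Callus II was made for every gene. The choice of members set a floor in both groups and not their order, apart from that exclusion. The choice does bear on the standard errors and p-values of members. The fit pooled the spread of all 4 groups, and members were held under 1 FPKM in Callus I and Leaf. With only Callus II and III fitted, 16 members were called, 6 higher and 10 lower in Callus III, against 49.8% of all genes tested.

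Sobic.001G485200.v3.2 (75593494 to 75598214 on chromosome 1) showed the widest rise, with 116 and 108 FPKM in Callus III against 5.59 and 6.26 FPKM in Callus II. Both Callus III libraries lay far above both Callus II libraries, and the ratio of means was 18.9. On the log2(FPKM + 1) scale, which understates changes of low values, the difference was 4.03 ± 0.16 (SE, limma adjusted p = 6.47e-06). Each group had n = 2 libraries, and the spread was pooled over all 4 groups. With only Callus II and III fitted, the SE was 0.0923 and the limma adjusted p 0.00324.

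Sobic.002G062100.v3.2 (6012262 to 6016502 on chromosome 2) reached 92.1 and 70.9 FPKM in Callus III, with 13.2 and 9.34 FPKM in Callus II. It was at 0 in both Callus I libraries and at 0.336 and 0.468 FPKM in Leaf. The libraries of Callus II and III did not overlap, and the rise was 2.76 ± 0.21 on the log2 scale (limma adjusted p = 9.16e-05). With only Callus II and III fitted, the SE was 0.234 and the limma adjusted p 0.00863.

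In the other direction, Sobic.003G441601.v3.2 (74031569 to 74033706 on chromosome 3) reached 392 and 418 FPKM in Callus II against 20.1 and 51.3 FPKM in Callus III. This was the highest Callus II mean of the set. Callus III was lower by a log2 difference of -3.61 ± 0.37 (limma adjusted p = 0.000343). With only Callus II and III fitted, the SE was 0.504 and the limma adjusted p 0.0161. The difference was -2.96 without Callus III replicate 1 and -4.26 without replicate 2.

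Sobic.008G099100.v3.2 (47074794 to 47077406 on chromosome 8) reached 120 and 140.2 FPKM in Callus II against 6.5 and 15.4 FPKM in Callus III. Its ratio of means, 11.9, was the highest in favour of Callus II. The log2 difference was -3.56 ± 0.34 (limma adjusted p = 0.00026), and -2.99 and -4.12 without Callus III replicate 1 and replicate 2. With only Callus II and III fitted, the SE was 0.443 and the limma adjusted p 0.01375.

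In all, limma called 18 of the 25 members (72.0%) between Callus III and Callus II at a Benjamini-Hochberg adjusted p under 0.05, against 57.3% of the 23166 genes tested. Higher in Callus III were 7 members, where 15.1% of all genes tested were higher, and lower were 11, where 42.3% were lower. The called differences ran from 0.56 to 4.03 among the higher and from -3.61 to -0.75 among the lower. The median difference was -0.608 over the members and -0.33 over all genes. In the deposited FPKM, both Callus III libraries lay above both Callus II libraries for 8 members (22.8% of all genes tested), and below them for 15 (57.4%). After median-ratio scaling, described below, it was 10 members above (37.2% of all genes tested) and 11 below (38.8%). All 25 passed the filter on low values, which follows from how they were chosen. Many of the genes tested had lower levels than the choice asked of members. With only genes at a mean of 5 FPKM or more tested, 17 of 24 members (70.8%) were called, against 64% of 14779 genes.

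The 12 members that differed by 3-fold or more were a class cut on the same difference, so their calls, 5 higher and 7 lower in Callus III, follow from the choice and say nothing further. As a description, these 12 calls were also made under all 16 alternative settings. Of the 13 members within 3-fold, 2 were called higher, 4 were called lower and 7 were not called. The split of these 6 calls depended on the scaling. Median-ratio scaling, which moves the median difference of all genes from -0.33 to 0, gave 4 higher and 0 lower among the 13. Among the 25 it gave 9 higher and 7 lower, beside 5288 higher and 5342 lower of 23153 genes tested (45.9% called). Scaling to equal FPKM sums, the 100 highest genes left out, gave 8 higher and 9 lower among the 25. Over the 23155 genes tested it gave 4546 higher and 6529 lower (47.8% called). Higher calls made up 38.9%, 56.2% and 47.1% of the members' calls under the deposited, median-ratio and equal-sum values, and 26.3%, 49.7% and 41% of the calls over all genes tested. The shift with scaling thus ran the same way in the whole table. Of the 7 uncalled members, Sobic.001G532501.v3.2, Sobic.003G353300.v3.2 and Sobic.010G031400.v3.2 changed sign with median-ratio scaling. Among the same 7, Sobic.005G041100.v3.2 was called higher in Callus III with median-ratio scaling (log2 difference 0.689, limma adjusted p = 0.019). It was also called with equal sums (0.538, limma adjusted p = 0.0307). Sobic.009G006500.v3.2 was called higher with median-ratio scaling (0.657, limma adjusted p = 0.0326). With the 3 genes of the 8-fold exclusion added back, a choice made after seeing the data, 21 of 28 were called, 7 higher and 14 lower.

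**Figure D2:**
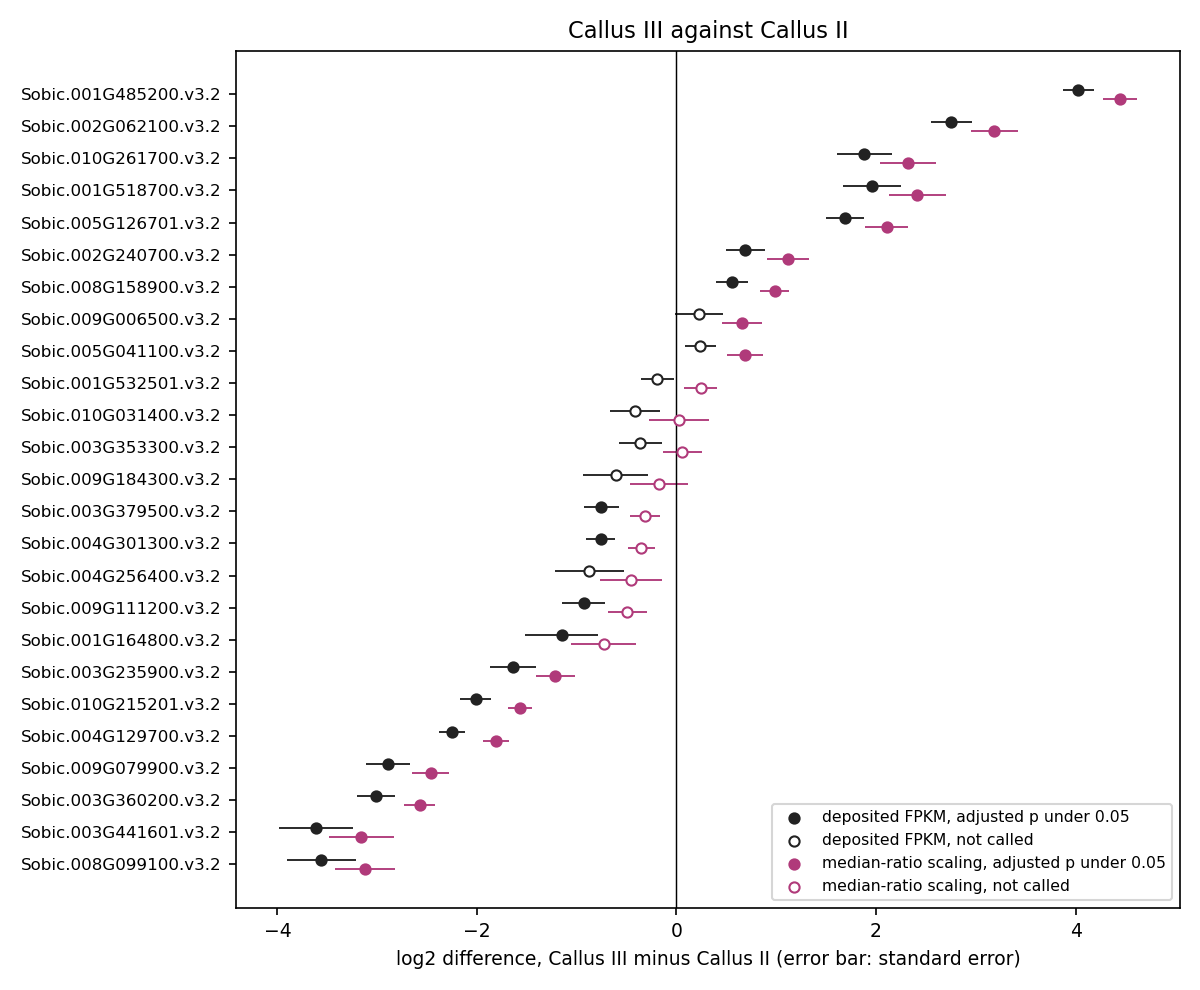
Difference between Callus III and Callus II for each of the 25 genes on the log2(FPKM + 1) scale, with its standard error, for the deposited FPKM and after median-ratio scaling. Filled points have a limma adjusted p under 0.05, and 14 genes, the 7 at the top and the 7 at the bottom, are filled under both scalings.

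The Callus III libraries differed from each other at a number of these genes. In Callus II the higher library was at most 1.94 times the lower, with a median of 1.18. In Callus III the median ratio was 1.25 and the highest 2.55, and 5 members (20%) differed by more than 2-fold, against 1.09% of the 10399 genes. In each of the 5, replicate 2 was the higher library, as it was for 76.7% of the 10399 genes. Besides Sobic.003G441601.v3.2 and Sobic.008G099100.v3.2, they were Sobic.001G164800.v3.2 at 6.03 and 14.6 FPKM, Sobic.004G256400.v3.2 at 6.36 and 13.3 FPKM, and Sobic.009G184300.v3.2 at 11.5 and 23.5 FPKM, named after their values were seen. After median-ratio scaling 3 of the 5 still differed by more than 2-fold, and so did Sobic.010G031400.v3.2, in which replicate 1 was the higher library (replicate 2 at 0.485 times replicate 1).

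The differences between the Callus III libraries were set beside the class of the gene, as a description. Among the 7 members that were at least 3 times as high in Callus II, Callus III replicate 2 lay above replicate 1 in 6, with a median ratio of 1.6. Among the 5 that were at least 3 times as high in Callus III it did so in 2, with a median ratio of 0.929. The same held across the table. Of 560 genes at least 3 times as high in Callus II, replicate 2 was the higher Callus III library for 94.3%. Of 235 genes at least 3 times as high in Callus III it was so for 37.0%. Among the 9604 genes within 3-fold the share was 76.65%. After median-ratio scaling these shares were 85.2%, 17.0% and 38.8%. Callus III replicate 2 was thus nearer to Callus II than replicate 1 at most such genes of the whole table. The part this has in the members' differences was not tested beyond leaving out each library. In the deposited FPKM, replicate 1 lay nearer to Callus II at several members. Among them were Sobic.010G031400.v3.2, Sobic.001G518700.v3.2 and Sobic.010G261700.v3.2.

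**Figure D3:**
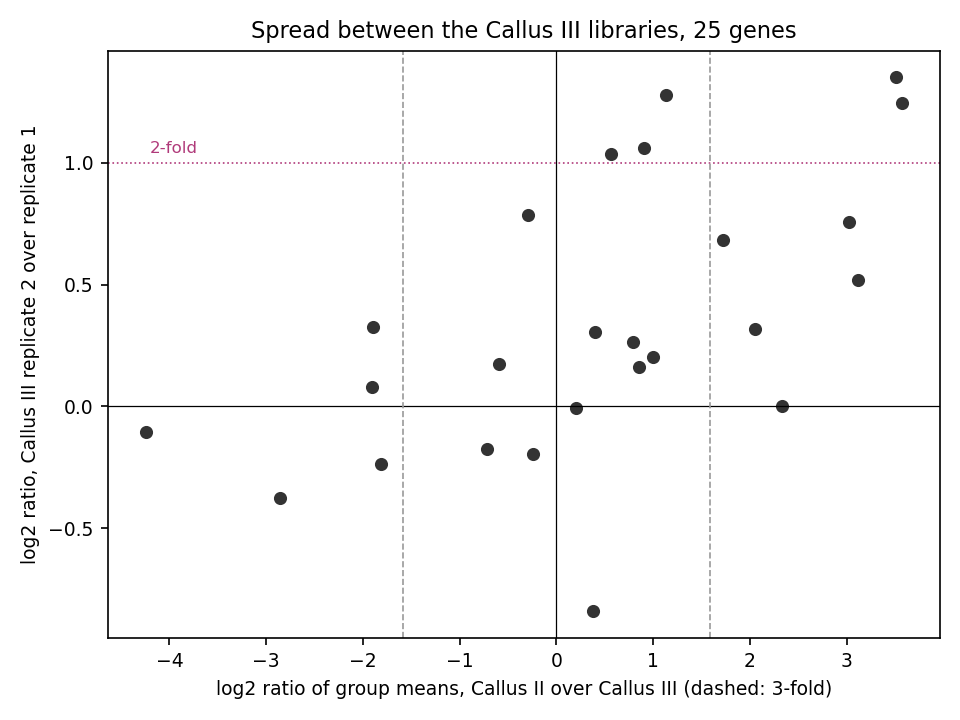
Ratio of Callus III replicate 2 to replicate 1 against the ratio of the Callus II mean to the Callus III mean for the 25 genes, both on a log2 scale, 1 point per gene. Dashed lines mark 3-fold between the groups and the dotted line 2-fold between the libraries, and the 5 genes above the dotted line have the higher mean in Callus II.

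On the low side, the members were not equally silent. All values in Callus I and Leaf were under 0.5 FPKM for 15 of the 25, and 14 were above 0 in all 4 of these libraries. The typical group mean was 0.0888 FPKM in Callus I and 0.21 FPKM in Leaf. Members listed at 0 numbered 7 and 6 in the Callus I libraries and 2 and 3 in the Leaf libraries. At 0 in both Callus I libraries were 4 members, of which Sobic.010G031400.v3.2 was also at 0 in both Leaf libraries.

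The member closest to the ceiling was Sobic.010G215201.v3.2 (chromosome 10, 55802348 to 55808868), with 0.944 and 0.973 FPKM in Callus I and 0.237 and 0.184 FPKM in Leaf. Its levels were 106 and 91.6 FPKM in Callus II against 21.1 and 26.3 FPKM in Callus III. Its locus overlaps that of Sobic.010G215100.v3.2 by 614 bp, and use of strand is not given, so its values are uncertain. Sobic.009G111200.v3.2 (chromosome 9, 44785084 to 44786853) also had its trace in Callus I, at 0.899 and 0.641 FPKM against 0.237 and 0.222 FPKM in Leaf, with levels of 42.2 and 28.3 FPKM in Callus II against 16.5 and 18.9 FPKM in Callus III. Sobic.009G079900.v3.2 (chromosome 9, 10723979 to 10726706) showed the opposite order, at 0.631 and 0.74 FPKM in Leaf and 0 and 0.0559 FPKM in Callus I. Its callus levels were 56.1 and 60.7 FPKM in Callus II and 5.36 and 9.05 FPKM in Callus III.

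Leaf and Callus I are compared for these genes only by their levels. All their values there were held under 1 FPKM by the choice, and they entered the fit through Callus II and III, so the number called between Leaf and Callus I is no result about them. That number was 4 (1 higher and 3 lower in Leaf), beside 70.8% of all genes tested (38.8% higher and 32.1% lower), and nothing is read from it. Both Leaf libraries lay above both Callus I libraries for 10 members and below them for 4, against 47.0% and 39.3% of all genes tested, and the same limit holds.

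**Figure D4:**
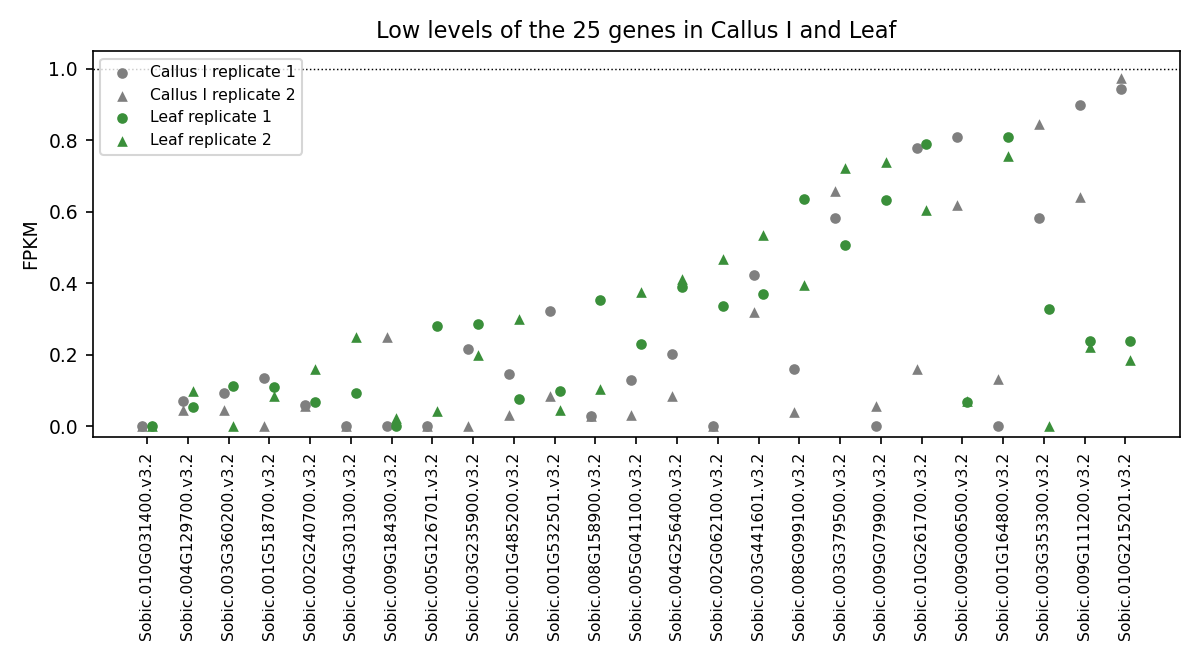
FPKM of the 25 genes in the 4 libraries of Callus I and Leaf, ordered by their highest value there. The dotted line is the 1 FPKM ceiling that chose the genes, and the values run from 0 in every library for Sobic.010G031400.v3.2 to 0.973 for Sobic.010G215201.v3.2.

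The members were spread over the genome. They lay on 8 of the 10 chromosomes, with 5 on chromosome 3, 4 each on chromosomes 1 and 9, 3 each on chromosomes 4 and 10, 2 each on chromosomes 2, 5 and 8, and 0 on chromosomes 6 and 7. No member was next to another. The closest pair in gene order, Sobic.003G353300.v3.2 and Sobic.003G360200.v3.2 on chromosome 3, had 73 genes between them. Their loci had a median span of 2524 bp against 2824 bp for all genes, and 3 (12%) overlapped another locus, as did 11.9% of all genes. Besides Sobic.010G215201.v3.2 these were Sobic.001G164800.v3.2, by 484 bp, and Sobic.003G379500.v3.2, which holds a whole smaller locus. In span and overlap they were close to the whole table.

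Genes beside the members were counted for a like pattern, as a description. The pattern is looser than the choice of members, since it sets no level in FPKM. Of the 50 genes immediately beside a member, 7 (14%) had every Callus II and III library above every Callus I and Leaf library. Of all genes, 8.81% had the pattern, and with so few neighbours nothing is read from the difference. Within 2 places it was 17 of 100. Without the neighbours of Sobic.010G031400.v3.2 and Sobic.003G441601.v3.2, it was 4 of 46 beside a member (8.7%) and 12 of 92 within 2 places (13%). These 2 members were set apart because their neighbours show the pattern, so the lower shares follow from that. Of the 4 remaining immediate neighbours, Sobic.010G215100.v3.2 and Sobic.001G164700.v3.2 overlap the member's own locus. At 5 FPKM or more in some Callus I or Leaf library were 25 of the 50 (50%, against 49.0% of all genes), and 12 (24%, against 29.2%) were under 1 FPKM in all 8 libraries.

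Around Sobic.010G031400.v3.2 on chromosome 10, 7 of the 20 genes within 10 places had all Callus II and III libraries above all Callus I and Leaf libraries. Of these, 5 also had at least 5 FPKM in all Callus II and III libraries. Around Sobic.003G441601.v3.2 it was 5 of 20, of which 4 had that level, and over all genes 8.81% and 4.87%. Both stretches were picked for their neighbours, so the counts are a description. The genes named here were chosen after their values were seen. Sobic.010G031100.v3.2 (2518319 to 2524369) reached 217 and 219 FPKM in Callus II, 176 and 199 FPKM in Callus III, 2.56 and 0.716 FPKM in Callus I, and 0.0515 and 0 FPKM in Leaf. It missed membership only by its Callus I value. Its locus overlaps that of Sobic.010G031300.v3.2 (2523128 to 2528382), so its values are uncertain too. Sobic.010G031300.v3.2, between it and the member, had 38.8 and 38.4 FPKM in Callus II and 23.3 and 32.6 FPKM in Callus III. It had 0.591 and 0.613 FPKM in Callus I, but 9.81 and 9.15 FPKM in Leaf. Sobic.010G031500.v3.2 (2553244 to 2554559), the next gene on the other side, reached 49.7 and 28.8 FPKM in Callus II, 19.4 and 18.4 FPKM in Callus III and 0 in both Callus I libraries, but 9.79 and 8.25 FPKM in Leaf.

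Farther along, Sobic.010G032000.v3.2 (2573486 to 2574343) reached 1376 and 1117 FPKM in Callus II and 916 and 968 FPKM in Callus III, with 46.7 and 4.05 FPKM in Callus I and 1.33 and 0.542 FPKM in Leaf. Not all genes of the stretch were of this kind. Sobic.010G031700.v3.2, which lies between the member and that gene, and Sobic.010G032200.v3.2, which lies beyond it, were at or near 0 in all 8 libraries, with at most 0.0426 FPKM. The files do not say whether these genes are copies of each other, and copies could share reads.

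On chromosome 3, the gene after Sobic.003G441601.v3.2 had a like pattern at lower levels. Sobic.003G441700.v3.2 (74036692 to 74038959) reached 25.3 and 23.6 FPKM in Callus II, 4.22 and 15.5 FPKM in Callus III, 0 and 0.0281 FPKM in Callus I, and 0.205 and 0.428 FPKM in Leaf. It missed membership by 1 Callus III library. Sobic.003G441800.v3.2 (74053271 to 74054671) reached 264 and 182 FPKM in Callus II, 8.15 and 21.5 FPKM in Callus III, 3.46 and 0.635 FPKM in Callus I, and 0.732 and 0.665 FPKM in Leaf. All 3 genes, the member included, shared the higher level in Callus II and the higher value in replicate 2 of Callus III. The genes before them, up to 3 places away, were at most 0.73 FPKM in any library.

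**Figure D5:**
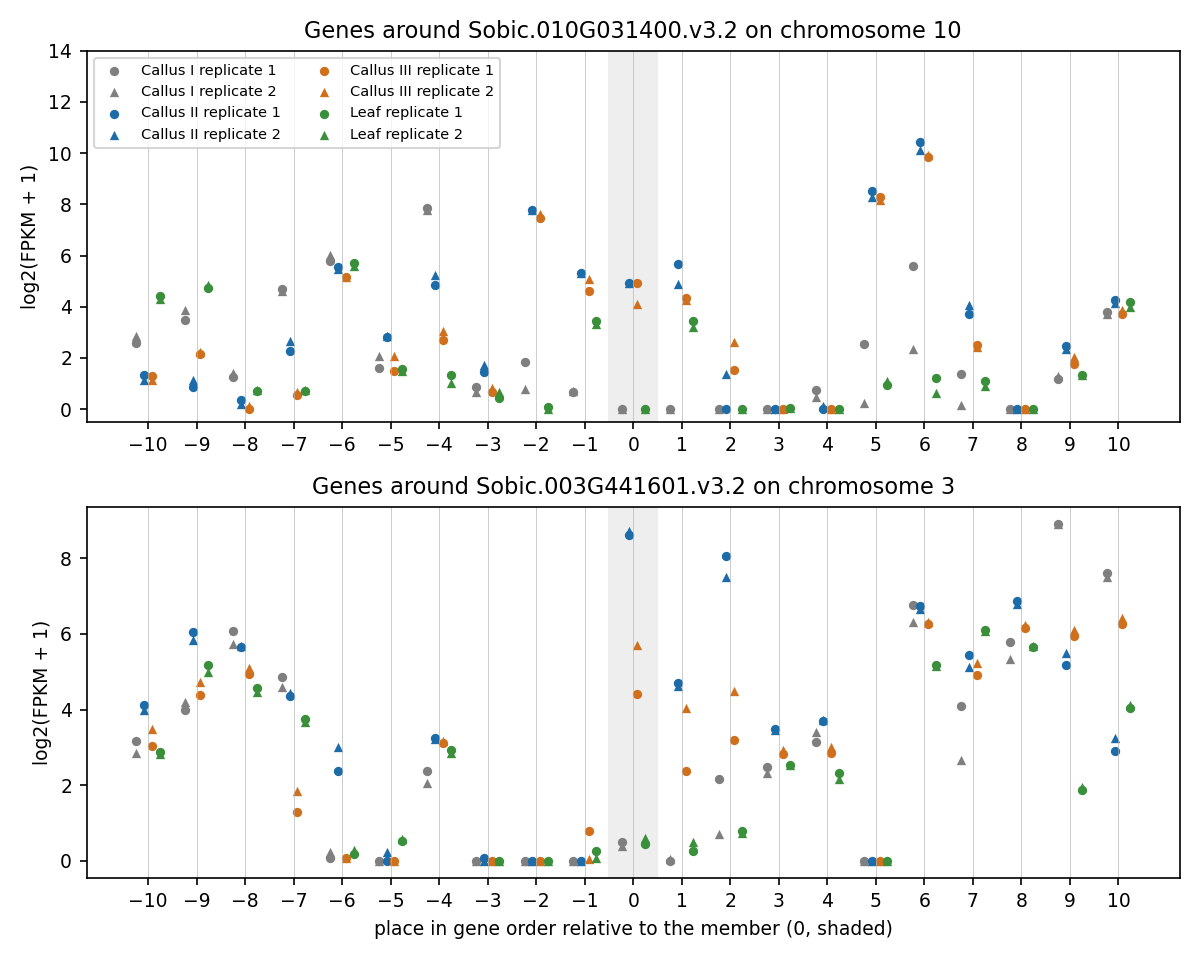
Levels, as log2(FPKM + 1), of the 10 genes on either side of Sobic.010G031400.v3.2 and of Sobic.003G441601.v3.2 in gene order, with 1 point per library. Genes high in Callus II and III and low in Callus I and Leaf lie near each member, among genes with other patterns, such as near 0 in all 8 libraries or highest in Callus I.

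The limits of the set were drawn through a continuous range of values. Just inside the threshold of 5 FPKM were Sobic.009G079900.v3.2 with a lowest Callus II or III value of 5.36 FPKM, Sobic.001G485200.v3.2 with 5.59 FPKM and Sobic.004G301300.v3.2 with 5.84 FPKM. Just outside were Sobic.003G218000.v3.2 with 4.77 FPKM, Sobic.002G172100.v3.2 with 4.74 FPKM and Sobic.001G541400.v3.2 with 4.64 FPKM. Just inside the ceiling of 1 FPKM, after Sobic.010G215201.v3.2 and Sobic.009G111200.v3.2, was Sobic.003G353300.v3.2 with a highest Callus I or Leaf value of 0.845 FPKM. Just outside were Sobic.010G155800.v3.2 at 1.002 FPKM, which the 8-fold exclusion would also remove (9.18 times), Sobic.009G184450.v3.2 at 1.035 FPKM and Sobic.001G536300.v3.2 at 1.084 FPKM.

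The 3 genes removed by the 8-fold exclusion differed from the members in degree. Sobic.009G208700.v3.2 had 676 and 819 FPKM in Callus II and 21.9 and 55.1 FPKM in Callus III. Sobic.004G214300.v3.2 had 228 and 202 FPKM in Callus II and 7.42 and 15.6 FPKM in Callus III, and Sobic.003G017200.v3.2 had 95.6 and 81.9 FPKM in Callus II and 10.1 and 6.3 FPKM in Callus III. Their lower Callus II value was 12.3, 13.0 and 8.1 times the highest of the other 6 libraries. The members nearest to that limit were Sobic.008G099100.v3.2 at 7.79 times, Sobic.003G441601.v3.2 at 7.64 times and Sobic.003G360200.v3.2 at 6.92 times, the last with 76.8 and 87.1 FPKM in Callus II and 7.75 and 11.1 FPKM in Callus III.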

How the data were processed

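The authors deposited 1 table of FPKM values per library, per the file headers, with an identifier and a locus for each gene. Per the submitters' processing notes, Trimmomatic, TopHat2 2.0 and Cuffdiff were used, with no roles given. The sources used here do not give the genome build, settings, filters or use of strand. Loci are printed from the files, counted from 1 (1 was added to each start). The tables were joined by identifier in Python 3.11.15 with pandas 2.3.3.

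The fit, in limma 3.58.1 (R 4.3.3), took the 23166 genes that reached 1 FPKM in 2 or more libraries, as log2(FPKM + 1). All 8 libraries entered with a mean for each group, and variances were moderated towards a trend with the mean level (2.83 prior degrees of freedom). Tests were 2-sided. Calls had a Benjamini-Hochberg adjusted p under 0.05 over all genes tested. A permutation test of 2 libraries against 2 cannot go below a 2-sided p of 0.333, so calls rest on variances shared across genes. Alternatives changed the pseudocount, filter, scaling, variance model, block, thresholds and libraries.

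The members, lists and tests were chosen with earlier results of these data known. Named were the members with the 10 highest floors, those nearest each threshold, those listed at 0 throughout the low groups, and, as identifiers have no names, at most 2 called genes in each direction with their tests. Other genes named were chosen after their values were seen. The planned 17 gene lists needed gene names (0 identifiers matched in a table of 32945 genes, NCBIv3) and were not used. The planned promoter motifs needed promoter sequences, which were not at hand, and were not used either.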

Additional observations from a re-analysis of the deposited data

How the results depend on the processing

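For Callus III against Callus II, the number of called members stayed within 1.5 times of 18 under all 16 alternatives and with the excluded genes added. It was 16 with only these groups fitted (49.8% of all genes tested) and 14 with a pseudocount of 0.1 FPKM (57.4% of all genes tested). Leaving out 1 library gave 16 to 19 called, 5 to 7 higher and 10 to 13 lower. The number lower fell to 7 with median-ratio scaling. The 4 members named with a test in that comparison kept their direction and their call under every alternative. The members were held under 1 FPKM in Leaf and Callus I by the choice, so the calls between these groups support nothing and are given for completeness. The 4 calls (16.0% of the members, against 70.8% of all genes tested; 1 higher and 3 lower) became 11 with a pseudocount of 0.1 FPKM (7 higher), 9 when only those groups were fitted (5 higher), and 2 with no filter on low values (1 lower). Leaving out 1 library gave 1 to 5 called, 0 to 3 higher and 1 to 2 lower. The cause was not tested. Replicate numbers are shared across groups, but the labels give no pairing, and the replicate 1 minus replicate 2 differences correlated at -0.103 to 0.018 between groups. With a replicate block, 18 members were called for Callus III against Callus II (7 higher, 11 lower) and 2 for Leaf against Callus I (1 lower).

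The number of members depends on the thresholds. It was 7 with at least 10 and under 0.5 FPKM, and 57 with at least 3 and under 1 FPKM. Leaving out 1 library gave 22 to 41, with 41 without Callus III replicate 1. Of the 25, 21 were still chosen without Callus III replicate 2 and 23 without Callus II replicate 1. With either library left out, the 8-fold exclusion removed Sobic.003G441601.v3.2 and Sobic.008G099100.v3.2, both named above with a test as lower in Callus III. Their calls under the alternatives were made with the set held as first chosen. All 25 were still chosen with any other library left out. Median-ratio scaling gave 28, of which 23 were among the 25, and equal sums gave 31, which held all 25. With median-ratio scaling Sobic.001G485200.v3.2, the gene with the widest rise, fell under the floor. Its 5.59 FPKM in Callus II replicate 1 is divided by 1.207 there. Sobic.010G215201.v3.2 passed the ceiling, as its 0.973 FPKM in Callus I replicate 2 is divided by 0.948. The number of members was 22 without overlapping loci. Depth is unknown, so levels under 1 FPKM cannot be given a counting error.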
